A study of Homo sapiens with 26 samples.

Results

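The small TIM genes TIMM8A, TIMM8B, TIMM9, TIMM10, TIMM10B and TIMM13 encode the small chaperones of the mitochondrial intermembrane space. They were taken as a family by name, for proteins of 83 to 103 amino acids that are imported through MIA40 without a presequence, a rule that uses no measured value but was written with earlier results of these data known. The family makes up 6 of the 60663 genes counted by RNA-seq. Among 57770 footprint entries that belong to 1 gene it has 5, because the deposited footprint files count TIMM10B together with DNHD1 and a readthrough gene.

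All libraries come from HEK293T, a human embryonic kidney line, in which the endogenous ribosomal protein RPL29 carries an Avi tag in a monoclonal knock-in line. The biotin ligase LOV-BirA, which blue light switches on, was delivered by lentivirus and sat at the endoplasmic reticulum (ER) as a Sec61β fusion, at the outer mitochondrial membrane (OMM) as a fusion to the OMP25 transmembrane domain, or free in the cytosol, in sorted polyclonal lines treated with cycloheximide (CHX) before labelling. Each location had 2 replicates of ribosome profiling, with a total input and a streptavidin pulldown library from each lysate. RNA-seq with LOV-BirA at the OMM had 2 replicates for each of 3 genotypes, wild type with a negative control gRNA, AKAP1 null and LARP4 null. A further single lysate received no CHX and, by the methods, a shorter labelling pulse. Its title names no genotype or gRNA, and it is taken as wild type. Each null genotype is a single clone of Cas9-expressing cells, so genotype and clone cannot be told apart, and CHX treatment of the genotypes is taken from the general protocol. The p-values measure only the spread between these replicates.

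Small TIM proteins form ring-shaped complexes in the aqueous space between the mitochondrial membranes. TIM9 with TIM10, and TIM8 with TIM13, shield hydrophobic precursors on the way from the TOM pore to the inner or outer membrane, and TIM10B sits on the TIM22 complex, which inserts carrier proteins into the inner membrane. Small TIM precursors lack a cleavable presequence and are oxidised after they cross the TOM pore by MIA40, which forms disulfides within a twin CX3C motif. Loss of TIMM8A causes deafness-dystonia syndrome.

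The twin motif is shown because it is the import signature that all members share while their coding sequences are otherwise only distantly alike. Capitals mark the paired cysteine codons, TGT or TGC, with 3 codons between them, in the mRNA sense from 5′ to 3′. Sequences and coordinates are from the MANE Select transcripts of GENCODE 44 on GRCh38.
TIMM10, first motif, chr11:57528891-57528905, minus strand: TGCcaccggaagTGT
TIMM10, second motif, chr11:57528828-57528842, minus strand: TGCctggaccgaTGT
TIMM9, first motif, chr14:58410882-58410896, minus strand: TGCtttttggacTGT
TIMM9, second motif, chr14:58409148-58409162, minus strand: TGTtcagaacatTGC
TIMM10B, first motif, chr11:6481799-6481813, plus strand: TGCttccagcgcTGT
TIMM10B, second motif, chr11:6482051-6482065, plus strand: TGTctgcacagcTGT
TIMM8B, first motif, chr11:112085427-112085441, minus strand: TGTtgggataaaTGT
TIMM8B, second motif, chr11:112085370-112085384, minus strand: TGTctctccagcTGT
TIMM8A, first motif, across the only exon junction between chrX:101346652 and chrX:101348538, minus strand: TGTtgggagaagTGC
TIMM8A, second motif, chrX:101346595-101346609, minus strand: TGTtttgtgaacTGC
TIMM13, first motif, chr19:2427295-2427309, minus strand: TGTttccggaagTGT
TIMM13, second motif, chr19:2427029-2427043, minus strand: TGCatcgccatgTGC
Each of the 6 coding sequences holds exactly 2 such motifs, and no motif apart from the first of TIMM8A crosses an exon junction. Global alignment of the coding sequences gave 51.7% identical columns for TIMM8A and TIMM8B, the highest of all pairs, and 43.4% for TIMM8B and TIMM9, the lowest.

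The genes lie apart in the genome. TIMM10 (ENSG00000134809, chr11:57528464-57530803), TIMM8B (ENSG00000150779, chr11:112084800-112086798) and TIMM10B (ENSG00000132286, chr11:6481501-6484681) are on chromosome 11, TIMM9 (ENSG00000100575, chr14:58408495-58427531) on 14, TIMM13 (ENSG00000099800, chr19:2425625-2427586) on 19 and TIMM8A (ENSG00000126953, chrX:101345661-101348742) on X, and the same bounds stand in the deposited RNA-seq files. TIMM8A and TIMM8B have 2 exons, TIMM10, TIMM10B and TIMM13 have 3, and TIMM9 has 6. Exons of NKAPD1 on the opposite strand cover 30.1% of the TIMM8B exons, those of TMPRSS9 20.1% of TIMM13, and those of KIAA0586 and TOMM20L 9.89% and 12.3% of TIMM9. The strand setting of the RNA-seq counting is not given, so reads from these overlaps may be shared or may be left out. NKAPD1, at up to 126 CPM (counts scaled by library total) in total input, was the most abundant of these partners, and its own wild-type enrichment was −0.16 (SE 0.10) against 1.80 for TIMM8B. KIAA0586 had 91.4 to 112 CPM in total input and a wild-type enrichment of −0.85 (SE 0.10), against 0.49 for TIMM9. In the AKAP1 null the enrichment of KIAA0586 differed from wild type by 0.38 (SE 0.15), against −0.71 for TIMM9. An effect of shared reads was not tested.

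The libraries hold 1025114 to 19539527 estimated footprint counts in coding sequences and 38347615 to 100840544 RNA-seq counts. AKAP1 was at 114 and 120 CPM in wild-type total input and at 32.2 and 20.3 CPM in the AKAP1 null, and LARP4 was at 225 and 231 CPM in wild type and at 79.3 and 74.0 CPM in the LARP4 null. Markers fixed for the line, VIM, NEFM, PAX2 and LHX1, were present in every total input, and PTPRC and ALB, which it should lack, stayed at or below 0.156 CPM.

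In total input TIMM8B was the most abundant small TIM mRNA per length and TIMM8A and TIMM10B the least, with no called difference between genotypes. Read counts scaled by library total and exon length (FPKM) over the 6 total inputs with CHX had medians of 54.1 for TIMM8B, 39.2 for TIMM13, 33.8 for TIMM9, 31.5 for TIMM10, 20.6 for TIMM10B and 18.7 for TIMM8A. TIMM8B ranged from 44.4 to 57.8 FPKM and did not overlap TIMM13, at 29.2 to 43.1. TIMM13, TIMM9 (30.2 to 36.9) and TIMM10 (29.5 to 35.1) overlapped each other, as did TIMM10B (17.1 to 20.9) and TIMM8A (18.3 to 20.5), and these pairs of neighbours are not ordered beyond their spread. None of the 6 members passed the test for a changed total level in either null line by edgeR's quasi-likelihood test with Benjamini-Hochberg adjustment. The fitted log2 differences lay between −0.21 and 0.13, with adjusted p of 0.97 or more. Among all 13977 genes 0 (0%) were called for the AKAP1 null and 2 (0.0143%) for the LARP4 null. At an unadjusted p under 0.05 there were 489 and 509 genes, and DESeq2 called 8 higher and 7 lower in the AKAP1 null and 14 higher and 14 lower in the LARP4 null, no member among them.

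In ribosome footprints the total inputs gave TIMM13 the densest coding window, at 675 to 822 RPKM, followed by TIMM8B at 291 to 570, TIMM10 at 135 to 295, TIMM8A at 38.8 to 83.4 and TIMM9 at 30.0 to 53.8. The RPKM divides by the length of a counted window, and these windows cover the coding sequence very unequally. Windows of 273 nt for TIMM10 and 286 nt for TIMM13 hold all or nearly all codons, with stop codon, while 155 of 267 coding nt were counted for TIMM9, 75 nt of 249 coding nt for TIMM8B and 73 nt of 291 for TIMM8A. In GENCODE 44 only the first 84 nt of TIMM8B and the first 132 nt of TIMM8A are coding in every coding transcript, so both TIMM8B motifs and the second TIMM8A motif lie wholly beyond the stretch that could be counted as coding. The 9876-nt window of the entry that holds TIMM10B spans 3 genes, and no footprint value is given for it.

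With LOV-BirA at the OMM, footprints of TIMM10 and TIMM13 were enriched in the pulldown and those of TIMM8B were not in its short coding window. Enrichment is the log2 ratio of pulldown to total input. TIMM10, partner of TIM9 in the main carrier-escorting ring, reached 1.34 and 1.79 in the 2 replicates, from 879 and 668 footprints in total input. TIMM13, partner of TIM8, reached 1.12 and 1.27 from 2537 and 2506 footprints. TIMM8B gave −0.21 and −0.27 from 467 and 365 footprints.
Both replicates of TIMM10 and TIMM13 thus lay far above those of TIMM8B, and above the median of all measured genes, −0.40 and −0.38. TIMM9 had −0.03 and 0.69 and TIMM8A −0.25 and −1.20, and both fell short of the minimum of 64 footprints in replicate 1. In the edgeR fit TIMM10 had a log2 of 1.59 (SE 0.11, adjusted p = 2.5e-09), a 3.02-fold enrichment, TIMM13 1.22 (SE 0.09, adjusted p = 5.5e-09) and TIMM8B −0.22 (SE 0.20, adjusted p = 0.33). So 2 of the 3 members tested were called enriched, where 17% of 6728 genes were, and 142 and 266 of those genes stood above TIMM10 and TIMM13.

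At the ER and in the cytosol no member was called higher in the pulldown with library totals as the scale, and TIMM8B was called lower at both. ER enrichment was 0.04 and −0.17 for TIMM10, 0.10 and −0.08 for TIMM13, −0.32 and −0.32 for TIMM9, −1.14 and −1.81 for TIMM8B, and −0.94 and −1.48 for TIMM8A, whose replicate 2 fell short of the minimum. Cytosolic LOV-BirA gave 0.25 and 0.13 for TIMM10, 0.31 and 0.19 for TIMM13, −1.11 and −2.05 for TIMM8B, and, with replicate 2 below the minimum, −0.28 and 0.83 for TIMM9 and −1.94 and −1.48 for TIMM8A.
Values of TIMM10 and TIMM13 were close to 0 at both locations, while the short windows of TIMM8B and TIMM8A were low at both. In the edgeR fit all 4 members tested at the ER were called depleted, where 72% of 7381 genes were and the median gene stood at −0.68. TIMM8B was at −1.71 (adjusted p = 4.5e-08), TIMM9 at −0.61 (0.018), TIMM10 at −0.34 (0.0051) and TIMM13 at −0.27 (0.0070). The direction of 3 of them depends on the scaling, since TMM, which takes most genes as unchanged, called TIMM10 (0.30, adjusted p = 0.024) and TIMM13 (0.37, adjusted p = 0.0019) enriched, as 29.2% of genes were, and gave 0.04 for TIMM9 and −1.06 for TIMM8B. DESeq2 called TIMM13 enriched (0.34, adjusted p = 0.0043), as 25.9% of genes were. Leaving out either ER replicate kept the call of TIMM8B alone. In the cytosol 1 of 3 members tested was called, TIMM8B at −1.70 (SE 0.18, adjusted p = 3.0e-06), where 5.96% of 7162 genes were depleted, and TIMM10 had −0.03 (SE 0.11) and TIMM13 0.02 (SE 0.09). The TIMM8B call was lost in a fit with no term per lysate (−1.63, adjusted p = 0.73).

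Set against the other locations, the 3 members with enough footprints were all higher at the OMM. OMM minus ER was 1.94 (SE 0.15, adjusted p = 5.8e-09) for TIMM10, 1.49 (SE 0.13, adjusted p = 1.3e-08) for TIMM13 and 1.49 (SE 0.26, adjusted p = 1.0e-04) for TIMM8B, and 31.1% of 6675 genes were called in this direction. OMM minus cytosol was 1.63 (SE 0.15, adjusted p = 2.5e-07), 1.20 (SE 0.13, adjusted p = 8.0e-07) and 1.48 (SE 0.27, adjusted p = 1.9e-04), and 16.6% of 6465 genes were called higher. Both comparisons share the OMM libraries. TIMM8B, near 0 at the OMM itself, thus differed between locations about as much as TIMM13 did. Pulldown and total input of cytosol replicate 1 come from different sequencing runs, and without that lysate OMM minus cytosol was still called for all 3. In a fit with no term per lysate, the calls of all 3 against the cytosol were lost, with adjusted p of 0.061 to 0.26, as was that of TIMM8B against the ER (adjusted p = 0.27).

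**Figure D1:**
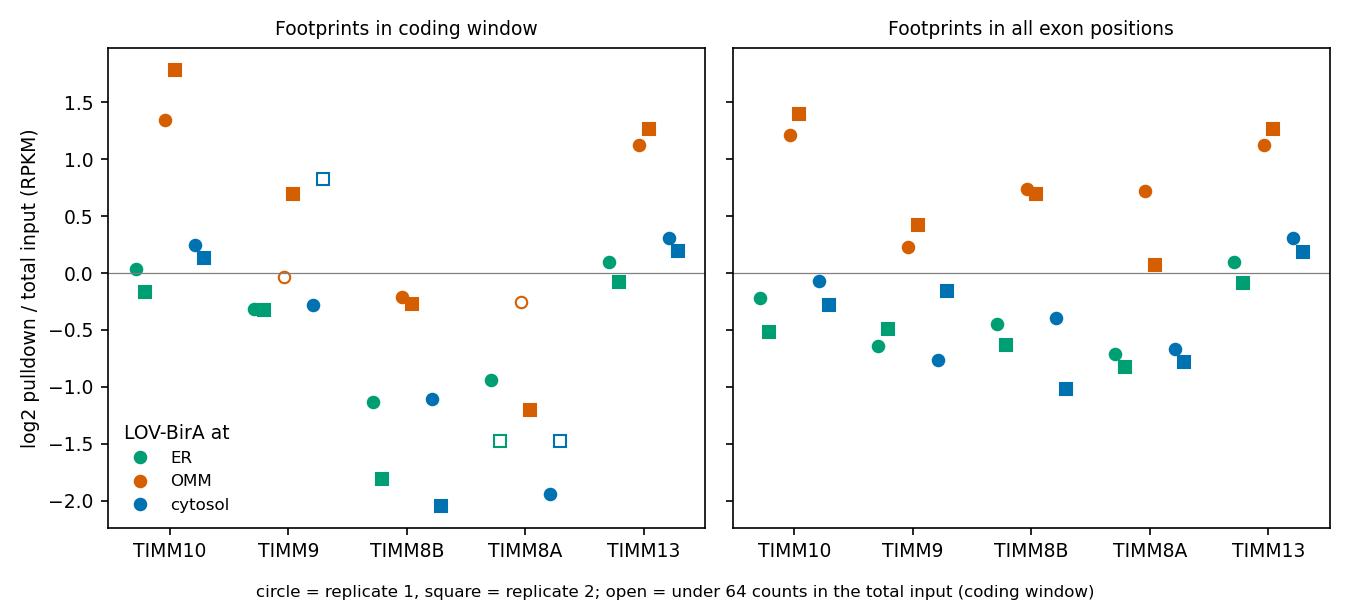
Log2 ratio of pulldown to total input RPKM for 5 small TIM genes in each lysate, counted in the coding window (left) and over all exon positions (right), with LOV-BirA at the ER, OMM or cytosol. OMM points of TIMM10 and TIMM13 lie above 1 in both panels, and those of TIMM8B move from −0.21 and −0.27 to 0.73 and 0.70 when all exon positions are counted.

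The enrichment of TIMM8B and TIMM8A was lower in the counted start of the reading frame than in the rest of their exons. Exon positions outside the coding and untranslated windows, which hold the coding positions that differ between transcript forms, took 37.0% to 51.6% of TIMM8B footprints in total input but 63.1% to 78.0% in the pulldown. Enrichment there was 1.59 and 1.38 at the OMM, 0.19 and −0.04 at the ER, and 0.17 and −0.22 in the cytosol.
At these positions TIMM8B at the OMM came close to TIMM10, and the ER and cytosolic values lay near 0. The gap to the coding window was of one sign in all 6 lysates, between 1.28 and 1.82. How many of all genes have such a gap was not counted, so for TIMM8B and TIMM8A alike it is a description only. TIMM8A showed a gap of the same sign in all 6 lysates, between 0.42 and 1.92. Enrichment at its other exon positions was 1.33 and 0.72 at the OMM, from only 33.5 and 95.1 footprints in total input. It was −0.51 and −0.44 at the ER and −0.15 and −0.55 in the cytosol. The TIMM8A coding window held only 5.33 and 14.7 footprints in the OMM pulldowns, so its gaps there rest on few counts.
Counted over all exons, 3 of 5 members were called enriched at the OMM, where 16.5% of 8431 genes were: TIMM10 (1.33), TIMM13 (1.21) and TIMM8B (0.73, SE 0.12, adjusted p = 6.6e-05). TIMM9 was at 0.37 (SE 0.19, adjusted p = 0.089) and TIMM8A at 0.28 (SE 0.21, adjusted p = 0.24). All 5 were then higher at the OMM than at the ER, by 1.90 (TIMM10), 1.47 (TIMM8B), 1.41 (TIMM13), 1.26 (TIMM8A) and 1.15 (TIMM9), with adjusted p of 4.8e-04 or less and 30.2% of 8395 genes called so. The same counts left all 5 members depleted at the ER, as 72% of 8997 genes were, with TIMM8A at −0.98, TIMM9 at −0.79, TIMM8B at −0.74, TIMM10 at −0.57 and TIMM13 at −0.20. In the cytosol 4 of 5 were depleted, where 6.84% of 8979 genes were, with TIMM8A at −0.88, TIMM8B at −0.81, TIMM9 at −0.64 and TIMM10 at −0.32, and TIMM13 was at 0.09 (adjusted p = 0.51).

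TIMM10 and TIMM9 carried many footprints in their 5′ untranslated regions. In total input this window took 17.2% to 34.3% of TIMM10 footprints and 61.1% to 79.0% of TIMM9 footprints, against 0.558% at most for TIMM13. These shares are not scaled by length. The 5′ window spans 581 nt for TIMM9, beside a coding window of 155 nt. It spans 250 nt beside 273 nt for TIMM10 and 53 nt beside 286 nt for TIMM13. Enrichment of the TIMM10 5′ window was 0.35 and −0.25 at the OMM, −1.13 and −1.64 at the ER, and −1.50 and −1.75 in the cytosol.
It lay below the TIMM10 coding window in all 6 lysates, by 0.99 to 2.04, so that the pulldowns held a smaller share of these footprints, 9.45% to 15.6%. The TIMM9 5′ window gave 0.35 and 0.23 at the OMM, −0.78 and −0.59 at the ER, and −1.03 and −0.60 in the cytosol. The OMM was its highest location, and it was below the TIMM9 coding window in 5 of 6 lysates. How many of all genes have a lower 5′ window was not counted.

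**Figure D2:**
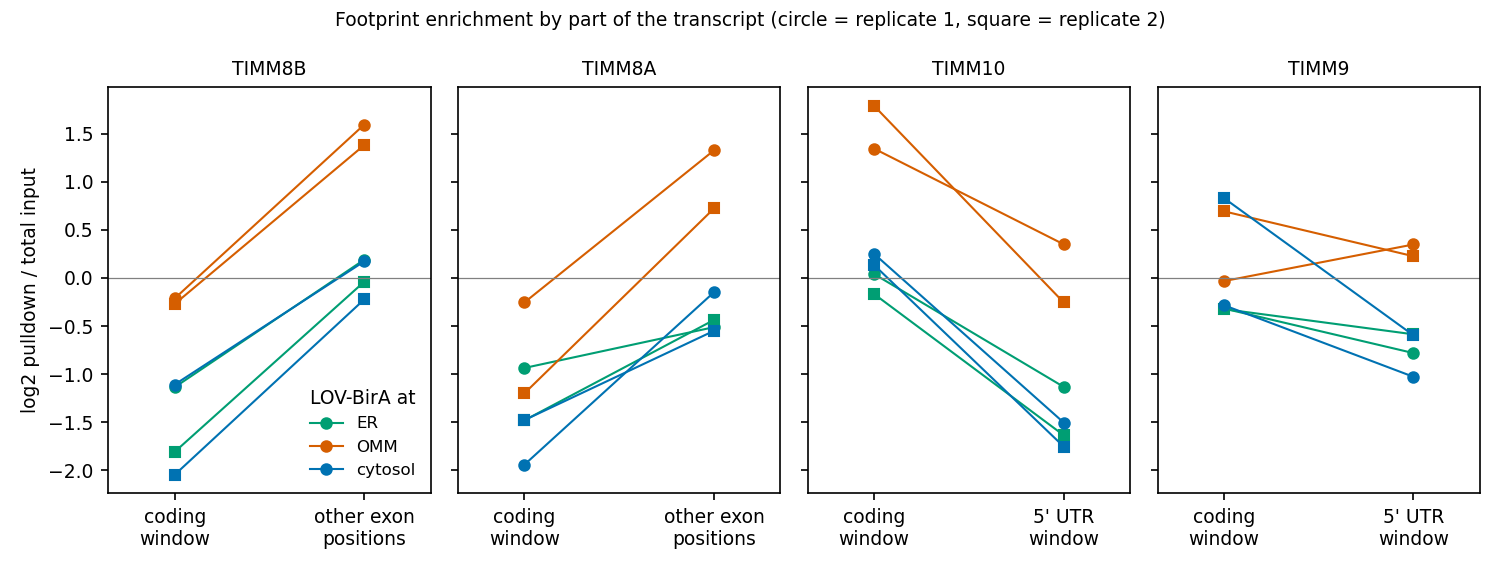
Log2 ratio of pulldown to total input footprints, scaled as RPKM, in the coding window and in other parts of the transcript, for each lysate with LOV-BirA at the ER, OMM or cytosol; lines join the parts of a gene in a lysate. TIMM8B and TIMM8A rise from the coding window to the other exon positions in all 6 lysates, and TIMM10 falls from the coding to the 5′ window in all 6.

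By RNA-seq, which counts whole transcripts on the labelled ribosomes, the wild-type family split into 3 mRNAs that were strongly enriched at the OMM and 3 that were weakly enriched or not. TIMM10 had log2 enrichment of 1.89 and 1.81, TIMM8B 1.79 and 1.81, and TIMM13 1.64 and 1.70. TIMM9 had 0.40 and 0.58, TIMM10B −0.09 and −0.07, and TIMM8A −0.26 and −0.31.
TIMM10 and TIMM8B were nearly level, with the lower value of TIMM10 just above both of TIMM8B, and every following member lay below the one before it in both replicates. The fitted values were 1.85 for TIMM10, 1.80 for TIMM8B (adjusted p = 1.2e-05) and 1.67 for TIMM13 (adjusted p = 1.2e-05), folds of 3.61, 3.48 and 3.18, and 0.49 for TIMM9 (SE 0.11, adjusted p = 0.0043). So 4 of 6 members were called enriched, against 20.2% of 13856 genes, and 156 genes stood above TIMM10. The call of TIMM9 was lost without wild-type replicate 2 (0.40). It was also lost in the edgeR fit with no term per lysate (0.50, adjusted p = 0.058). TIMM8A was called depleted, at −0.29 (SE 0.08, adjusted p = 0.012), as 45.6% of genes were, and this call is lost with TMM (0.01, adjusted p = 0.96) and without either replicate. The median gene was at −0.28 with library totals and at 0.01 with TMM. TIMM10B, at −0.08 (SE 0.09, adjusted p = 0.42), turned to 0.21 with TMM.
Among ring partners, TIMM9 lay far below TIMM10 and TIMM8A far below TIMM13, while TIMM8B was close to TIMM13, and these differences between genes were not tested.

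Without CHX the single lysate gave 1.498 for TIMM10, 1.34 for TIMM13, 1.14 for TIMM8B, −0.25 for TIMM10B, −0.28 for TIMM9 and −0.32 for TIMM8A. The same 3 genes were high, with no replicate check, and TIMM9 lay below both wild-type values. TIMM9 was also the member whose total level differed most without CHX, at 86.5 CPM against 47.0 and 51.0 CPM in wild type with CHX. The line or gRNA may differ as well as CHX and pulse, and these cannot be told apart.

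In AKAP1 null cells the OMM enrichment of TIMM8B, TIMM10, TIMM13 and TIMM9 fell. AKAP1 anchors protein kinase A and RNA at the OMM. TIMM10 had 0.29 and 0.25 there, TIMM8B 0.18 and −0.17, and TIMM13 0.46 and 0.63. TIMM9 had −0.09 and −0.35, TIMM10B −0.34 and −0.42, and TIMM8A −0.62 and −0.64.
For every member both AKAP1 null values lay below both wild-type values. The share of all genes with such a gap was not counted, so this is a description only. The difference in enrichment was −1.79 (SE 0.16, adjusted p = 4.0e-04) for TIMM8B, −1.58 (SE 0.13, adjusted p = 3.6e-04) for TIMM10, −1.12 (SE 0.15, adjusted p = 0.0017) for TIMM13 and −0.71 (SE 0.16, adjusted p = 0.020) for TIMM9. So 4 of 6 members fell, against 7.96% of 13856 genes, while the median of all genes was at 0.19. TIMM8A (−0.34, SE 0.11, adjusted p = 0.076) and TIMM10B (−0.30, SE 0.12, adjusted p = 0.13) did not pass the test. TMM brought TIMM8A past it, at −0.51 (adjusted p = 0.025), where 10.3% of genes were called lower. In a fit with no term per lysate only TIMM10 and TIMM8B were called. The call of TIMM9 was lost when any of the 4 lysates was left out, with −0.58 to −0.84 and adjusted p of 0.068 to 0.24.
Within the AKAP1 null itself TIMM13 (0.54, adjusted p = 0.0043) and TIMM10 (0.27, adjusted p = 0.044) were still called enriched, as 13.9% of genes were, TIMM8B (0.01) and TIMM9 (−0.22) were not called, and TIMM8A (−0.63) and TIMM10B (−0.38) were called depleted, as 28.1% were. The calls of TIMM13, TIMM10 and TIMM10B were lost when either AKAP1 null replicate was left out.

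In LARP4 null cells, with disruption of an RNA-binding protein that can bind AKAP1, the same 3 mRNAs were lower than in wild type without passing the test. TIMM10 had 1.24 and 1.02, TIMM13 1.27 and 0.95, and TIMM8B 1.18 and 0.93, all below both wild-type values. TIMM9, at 0.36 and 0.05, also lay below both of its wild-type values. TIMM10B had −0.08 and −0.28, and TIMM8A −0.23 and −0.20. The share of all genes with such a gap was not counted. All 3 high mRNAs were still called enriched, at 1.13, 1.11 and 1.06, with adjusted p of 2.2e-04 or less, as 22.8% of genes were, and TIMM8A was called depleted, at −0.21 (adjusted p = 0.049), as 30% were, a call lost with TMM, with DESeq2, with no term per lysate, with other minimums and without replicate 1 (adjusted p of 0.065 to 0.36).
The difference from wild type was −0.74 (SE 0.15, adjusted p = 0.17) for TIMM8B, −0.72 (SE 0.13, adjusted p = 0.16) for TIMM10, −0.56 (SE 0.15, adjusted p = 0.27) for TIMM13 and −0.29 (SE 0.15, adjusted p = 0.33) for TIMM9. edgeR called 0% of 13856 genes in this comparison, with 2270 at an unadjusted p under 0.05, and DESeq2 called 454 genes lower (3.28%), among them TIMM10 (−0.93), TIMM8B (−0.95) and TIMM13 (−0.76). The LARP4 null replicates stood apart from each other, with medians of all genes at −0.17 and 0.01. Without replicate 1, TIMM10, TIMM8B, TIMM13 and TIMM9 were called (−0.83, −0.87, −0.72 and −0.44), where 8.24% of genes were called lower and 4517 genes higher. Without replicate 2, TIMM10 and TIMM8B were called (−0.61 and −0.62), where 0.671% of genes were called lower. In both fits the lone lysate is assumed to vary like the other genotypes.
Compared with each other, the AKAP1 null lay below the LARP4 null, with −1.05 for TIMM8B (adjusted p = 0.0073) and −0.86 for TIMM10 (adjusted p = 0.0074), 2 of 6 members, against 2.94% of genes called lower. TIMM13 (−0.57, adjusted p = 0.073), TIMM8A (−0.42, adjusted p = 0.084), TIMM9 (−0.42, adjusted p = 0.19) and TIMM10B (−0.20, adjusted p = 0.42) did not pass. Leaving out AKAP1 null replicate 1 kept TIMM8B alone, and leaving out replicate 2 kept neither. Fewer of all genes were called lower in these fits too, so the lost calls do not set the members apart. Leaving out LARP4 null replicate 1 or 2 gave 4 or 5 called members, with 25.3% or 9.14% of all genes called lower.

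**Figure D3:**
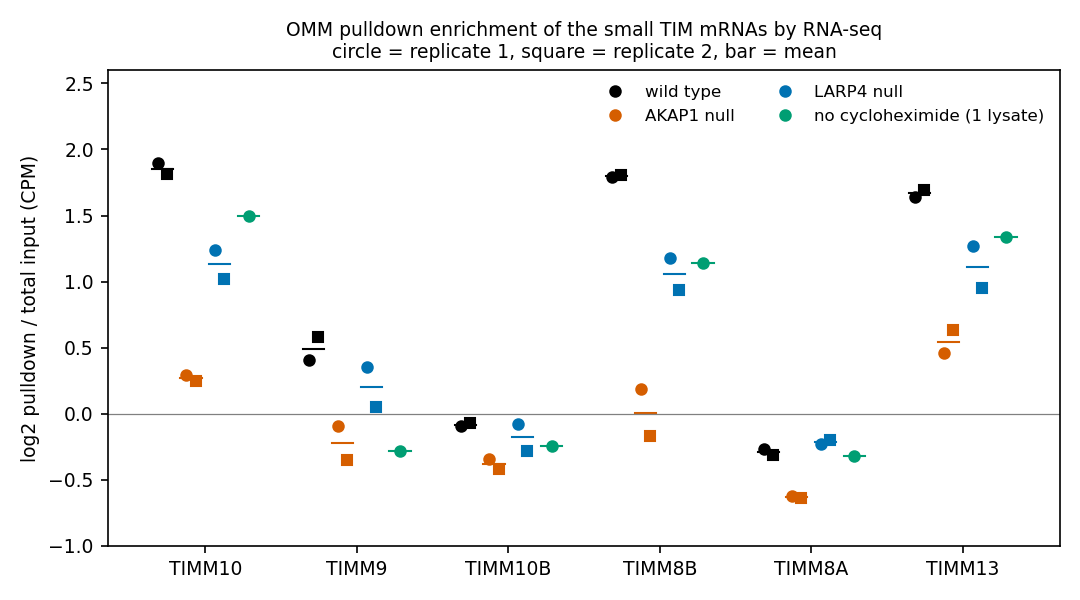
Log2 ratio of pulldown to total input CPM of the 6 small TIM mRNAs with LOV-BirA at the OMM, for each lysate of wild-type, AKAP1 null and LARP4 null cells and the 1 lysate without CHX; bars are means. For TIMM10, TIMM8B and TIMM13 wild type lies at 1.64 or above, the LARP4 null between 0.93 and 1.27 and the AKAP1 null at 0.63 or below.

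**Figure D4:**
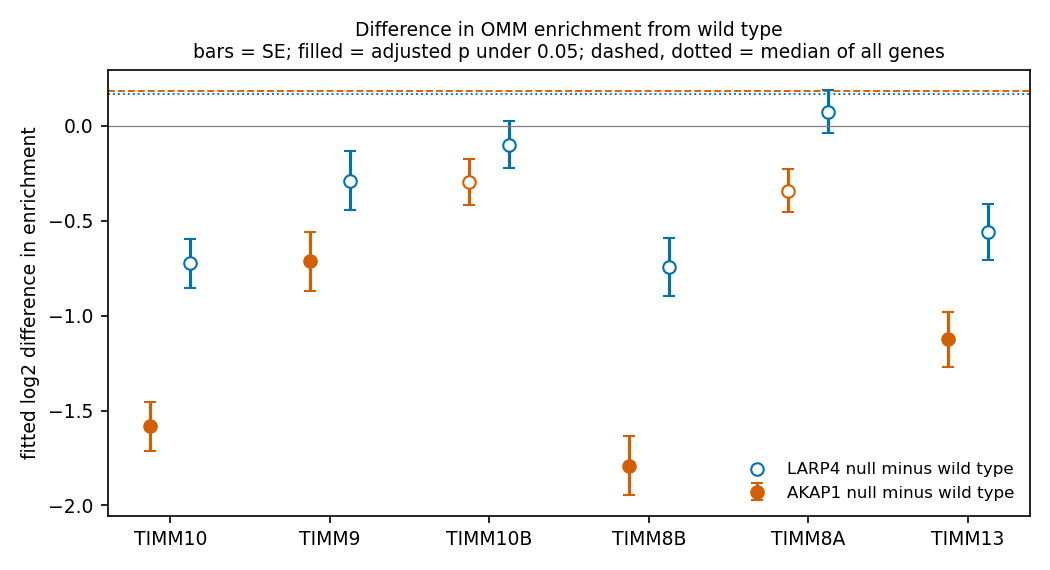
Fitted log2 difference in OMM enrichment from wild type for the AKAP1 null and the LARP4 null, with SE bars and the medians of all genes (0.19 and 0.17) as lines; filled points passed the adjusted p of 0.05. Of the AKAP1 null values TIMM10, TIMM8B, TIMM13 and TIMM9 are filled, and no LARP4 null value is. The wild-type libraries are shared by both.

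The rest of the import pathway was set beside the small TIM genes through fixed lists. The other twin-cysteine proteins that pass through MIA40 came first. Of 22 in RNA-seq, 20 were enriched at the OMM in wild type, with a median of 1.26, from 0.06 for COX19, a copper chaperone, to 2.47 for NDUFB10, a complex I subunit, and 18 fell in the AKAP1 null, with a median of −1.42 and −1.84 for COX17, the copper donor of cytochrome oxidase. In footprints 16 of 17 were enriched at the OMM and all 17 were higher there than at the ER. Over all genes tested the medians were −0.28 for wild-type enrichment, 0.19 for the AKAP1 null difference and −0.38 for footprints at the OMM. For this and the following lists, 20.2% of all genes were called enriched in wild type and 7.96% lower in the AKAP1 null. In footprints 17% were called enriched at the OMM and 31.1% higher there than at the ER.
The machinery that oxidises and receives the small TIM proteins was mixed. All 3 genes of the MIA40 relay were enriched in wild type, where AIFM1, which binds MIA40, had 2.02, GFER, which reoxidises it, 0.54, and CHCHD4, MIA40 itself, 0.73. In the AKAP1 null AIFM1 rose by 1.38 (adjusted p = 0.0011), as 6.52% of all genes did, CHCHD4 fell by 0.43 (adjusted p = 0.0496) and GFER was at −0.03.
Of the TIM22 complex, TIMM22, the channel, and TIMM29, a subunit, were at 0.65 and 0.34 in wild type and did not pass the test in the AKAP1 null (−0.30 and −0.04), and the lipid kinase AGK rose there by 1.31 (adjusted p = 6.0e-04). TIM23 and its motor gave 10 of 11 enriched in wild type, and in the AKAP1 null 3 that fell, led by ROMO1 (−1.95) and TIMM17B (−1.24), and 2 that rose, the matrix chaperone HSPA9 (1.40) and TIMM44 (1.05). Of 6 TOM genes 3 fell, among them the small subunits TOMM7 (−1.86) and TOMM5 (−1.31), and the receptor TOMM70 rose by 0.54.
The SLC25 carriers, which are the known clients of the small TIM chaperones, gave 11 enriched and 16 depleted of 41 in wild type, beside 20.2% and 45.6% of all genes, with a median of −0.02. In the AKAP1 null 3 carriers fell, 2 rose and 36 did not pass, beside 7.96% and 6.52% of all genes, with a median of −0.02. In footprints at the OMM 2 of 22 carriers were enriched and 5 depleted, where 46% of all genes were depleted. For the LARP4 null difference from wild type no gene of any list passed the test by edgeR. The test called 0% of all 13856 genes there, so this does not set the lists apart.

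**Figure D5:**
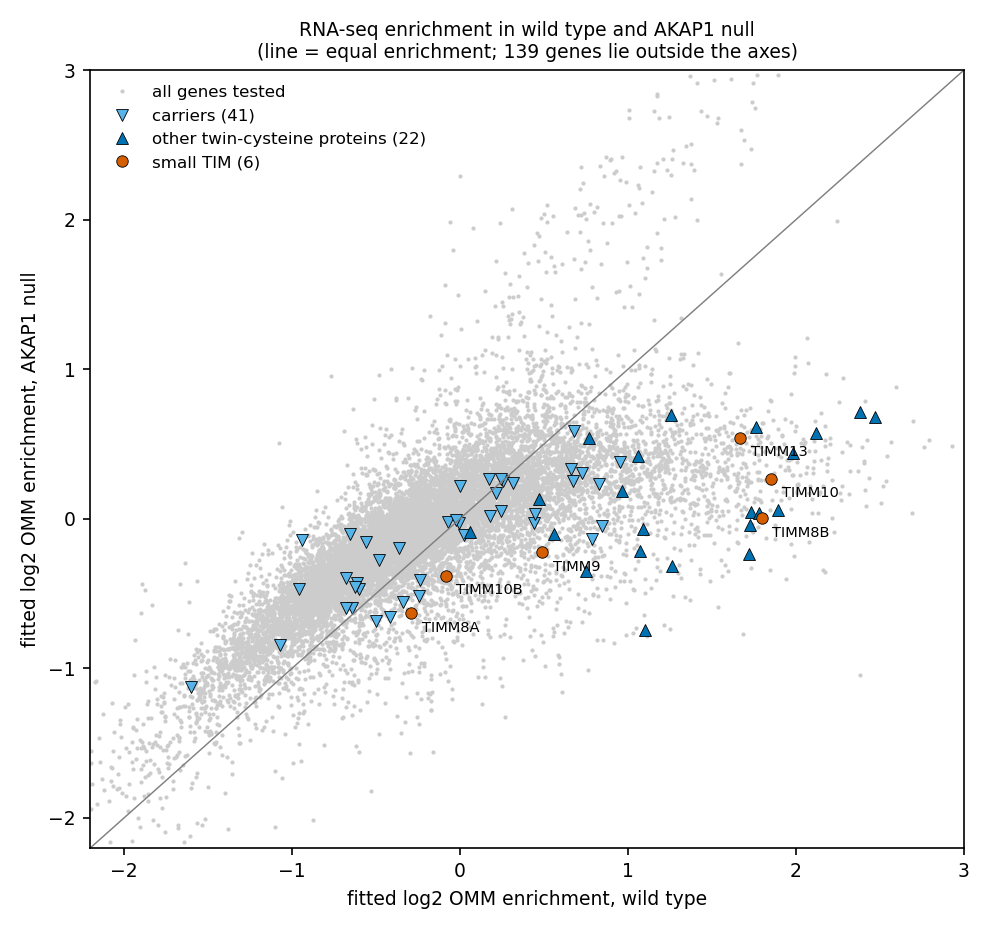
Fitted log2 OMM enrichment of 13856 genes by RNA-seq in wild type (x) and AKAP1 null (y), with the small TIM genes, the other twin-cysteine genes and the SLC25 carriers marked; 139 genes lie outside the axes. TIMM10, TIMM8B and TIMM13 lie at 1.67 to 1.85 in wild type and at 0.01 to 0.54 in the AKAP1 null, far below the line of equal enrichment.

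Among 6431 genes past both minimums, those nearest to each member by Euclidean distance of log2 enrichment over 7 RNA-seq lysates were ATP5F1E, CHCHD5 and RBIS for TIMM8B (0.29 to 0.32), AP2S1, NDUFB6 and MRPL57 for TIMM13 (0.21 to 0.25), and TXN, MPG and NHP2 for TIMM10 (0.24 to 0.25). TIMM9 had CTNNBIP1, ANAPC16 and HMGN1 (0.24 to 0.28), TIMM8A had UNK, SCMH1 and HAUS2 (0.24 to 0.31), and TIMM10B had CDC42SE1, CSTF3 and LZIC (0.30 to 0.31). Over all 13 lysates the nearest were SWI5 for TIMM10 (0.57), AP2S1 for TIMM13 (0.46) and POLR2F for TIMM8B (1.12). TIMM8A, TIMM9 and TIMM10B were not among the 6431 genes and so could not be found as neighbours. None of TIMM8B, TIMM10 and TIMM13 was among the 3 nearest genes of another member.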

How the data were processed

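Ribosome profiling (12 libraries) and RNA-seq (14 libraries) of HEK293T cells were used. For footprints the authors aligned unique reads of 27 to 36 nt to GRCh38 and deposited estimated counts and RPKM per gene region, with 13 nt ignored at each read end by plastid. For RNA-seq the authors aligned with STAR and deposited featureCounts counts. A deposited column named FPKM is 10 times what the counts give and was treated as a score and not used. From 3 to 7 broken lines per RNA-seq file were left out.

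Enrichment per lysate was the log2 ratio of deposited RPKM, or of CPM after adding 0.5 to each count. The test was that of edgeR 4.0.16 (quasi-likelihood, two-sided, Benjamini-Hochberg over all genes tested, called under 0.05) in R 4.3.3 on rounded estimated counts or counts, with a term per lysate, library totals as scale (TMM for total inputs alone), and a minimum of 64 footprints in both total inputs or a mean of 64 counts. The pairing of pulldown and total input is the shared lysate of the methods. Deviations of the 2 libraries of a lysate correlated at 0.49 to 0.88. Replicates differed beyond counting error. Annotation is GENCODE 44; tables used Python 3.11.15, pandas 2.3.3 and Biopython 1.88.

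Members and lists were chosen with earlier results of these data known. Named are the members, AKAP1 and LARP4, overlapping genes, the extremes of each list (the 2 largest and 2 smallest fitted values, of which some are printed) and the 3 nearest genes per member. On simulated data, 92% of 200 genes changed by a log2 of 1 at the OMM were recovered and 35.5% by 0.5, and 68% and 3% for the AKAP1 null difference. False calls numbered 13 and 8 at the OMM, and 5 and 0 for the AKAP1 null difference. The simulation had no differences between lysates and no other changed genes, so these rates need not hold for the real data. Alternatives were TMM, DESeq2 1.42.0, no lysate term, a block of replicate numbers, minimums of 10 and none, all exon positions, and leaving out each replicate.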

Additional observations from a re-analysis of the deposited data

Results flagged for a closer look

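The difference between locations passed the edgeR test for the same 3 members in both comparisons. OMM minus ER was 1.94 for TIMM10, 1.49 for TIMM8B and 1.49 for TIMM13, and OMM minus cytosol was 1.63, 1.48 and 1.20. The difference between genotypes passed for 4 members between AKAP1 null and wild type, −1.58 for TIMM10, −1.79 for TIMM8B, −1.12 for TIMM13 and −0.71 for TIMM9, and for 2 between AKAP1 null and LARP4 null, −0.86 for TIMM10 and −1.05 for TIMM8B.

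Footprints outside the counted coding windows, which no comparison in coding windows uses, were above the limit of 3 counts in every total input. The lowest counts were 183 in the 5′ window of TIMM10, 121 in that of TIMM9, 145 at the other exon positions of TIMM8B and 33.5 at those of TIMM8A.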

How the results depend on the processing

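Of the members' fitted values under the alternatives, 454 kept direction and side of the threshold, 48 lost the call, 23 gained it and 29 changed sign. Enrichment of TIMM10 and TIMM13 in OMM footprints (1.33 to 1.94 and 1.15 to 1.57), of TIMM10, TIMM8B and TIMM13 in wild-type RNA-seq (1.64 to 2.15), and the fall of TIMM10 and TIMM8B in the AKAP1 null (−1.76 to −1.54 and −1.97 to −1.61) were called under every alternative. TMM turned the ER values of TIMM10, TIMM9 and TIMM13 to 0.30, 0.039 and 0.37 and DESeq2 to 0.27, 0.007 and 0.34, TIMM8B at the OMM became 0.10, 0.13 and, over all exons, 0.73, wild-type TIMM10B became 0.21 and 0.20 and TIMM8A 0.006 with TMM, and the LARP4 null difference of TIMM8A became −0.13 with each. Without the replicate block (the term per lysate), called members numbered 1 at the ER, 0 in the cytosol, 0 for OMM minus cytosol, 2 in the AKAP1 null, 2 for its difference from wild type and 0 for its difference from the LARP4 null. Genes called lower then numbered 3174 of 7381 at the ER, 29 of 7162 in the cytosol and 1566 of 13856 in the AKAP1 null. Its difference from wild type had 331 of 13856 lower, and that from the LARP4 null 20. OMM minus cytosol had 199 of 6465 genes higher. A block of replicate numbers across genotypes changed no member call. DESeq2 called 2 members at the ER, TIMM13 higher and TIMM8B lower, and 3 for the LARP4 null difference, where no minimum also gave 3. With no minimum 316 of 39877 genes were called lower in that difference. In the cytosol a minimum of 10 and no minimum gave 2, beside 522 of 9960 and 612 of 13727 genes called lower. All exons gave 4 there, 5 for OMM minus ER and 5 for OMM minus cytosol. For OMM minus cytosol 1311 of 8254 genes were then called higher. Leaving out a replicate changed the number of called members at the ER, in wild type, in the AKAP1 null, for the LARP4 null difference and between the null lines. Such a fit keeps a single lysate of a group. The number of all genes called changed too, so this does not set the members apart. Values then ranged from −0.10 to 0.015 for TIMM10 and −0.04 to 0.076 for TIMM13 in the cytosol, −0.17 to 0.18 for TIMM8B in the AKAP1 null and −0.20 to 0.002 for TIMM10B in the LARP4 null difference. For total levels they ranged, in the AKAP1 null, from −0.032 to 0.064 for TIMM10B, −0.20 to 0.002 for TIMM9, −0.084 to 0.12 for TIMM13 and −0.047 to 0.037 for TIMM8A, and in the LARP4 null from −0.14 to 0.10 for TIMM9, −0.41 to 0.054 for TIMM13 and −0.01 to 0.13 for TIMM8A; no minimum turned TIMM8A and TIMM9 to 0.001 each. The cause of these changes was not tested. With 2 replicates per group, depth limits TIMM8A and TIMM9, which fell under 64 footprints in 3 and 2 of 6 total inputs.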
